A study of Mus musculus with 4 samples.

Results

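The cells described here were 1647 host bone marrow cells with the transcripts of blood stem cells but without signs of a strong interferon response or of platelet bias. They were chosen from 11764 sorted progenitors: 1345 of 5882 came from mice with B-cell acute lymphoblastic leukemia (B-ALL environment) and 302 of 5882 from control mice given phosphate-buffered saline (PBS control). A cell was taken if it had at least as many unique molecular identifiers (UMIs, each 1 captured transcript) as the shallowest control cell of the series, about 3000, and at least 1 UMI of 3 or more of 8 stem cell markers, Hlf, Mecom, Procr, Ly6a, Pdzk1ip1, Fgd5, Hoxb5 and Slamf1. It was left out if it held any UMI of Pf4 or Vwf, or UMIs of 3 or more of the interferon-induced genes Ifit1, Rsad2, Iigp1 and Ifi44. These 14 genes chose the cells, so their values are given as a description and support nothing.

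The question behind the comparison is how normal blood stem cells differ when a leukemia grows in the same marrow. Wild-type CD45.1 hosts were injected through the tail vein with 150000 tumor cells, taken from a lymph node of 1 leukemic CD45.2 mouse (LN768) of the genotype Ebf1+/-Pax5+/-, which lacks 1 copy each of these B lineage factors, and marrow was taken 3 weeks later. In both groups the sort kept KIT+Lin-CD45.2-CD45.1+ cells, so host cells with the stem cell factor receptor KIT and without lineage markers, and libraries were made with the Chromium Single Cell 3' kit. The control mice received PBS in place of tumor cells, and the prefix tm of the deposited cell names was read as the tumor environment. All leukemic mice carried cells of the same donor tumor, and the ages and number of hosts are not given in the sources used here. Although 2 samples per group are named, single cells could not be assigned to them, and each group is treated as 1 sample. Differences could therefore not be set against the spread between mice, no p-value was made, and every interval is an exact 95% interval that covers counting error only.

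Hematopoietic stem cells sit at the top of blood formation: most divide rarely, can self-renew, and replace all blood lineages after transplantation. Hlf and Mecom encode transcription factors of the stem cell program, Procr encodes the endothelial protein C receptor, Ly6a encodes the surface antigen Sca-1, and Slamf1 encodes the CD150 antigen of stem cell gates. Cytokines such as stem cell factor act on these cells through JAK kinases and STAT factors. The SOCS family, to which Cish belongs, is switched on by STAT factors and dampens the same receptors.

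The selected cells of the B-ALL environment held 14268565 UMIs in all, with a median of 8905 and at most 44178 per cell, and those of the PBS control held 2724006, with a median of 7637 and at most 30983. Mitochondrially encoded transcripts were a median of 6.23% of UMIs in selected cells of the B-ALL environment and 3.82% in those of the PBS control. Cells outside the stem cell selection differed in the same direction, with medians of 5.09% in the B-ALL environment and 3.38% in the PBS control. The groups shared 18 cell barcodes, 6 selected cells carried one of these, and in 1 case both cells of the pair were selected.

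Socs3 and Cish had a motif of STAT factors near their start sites, and both were among the genes that stood higher in the stem cells of leukemic mice. The stretches are shown because 6 genes of the SOCS and JAK-STAT feedback list were higher, 5 of them had a RefSeq promoter entry, and 2 of these 5 held the 9-base motif TTCNNNGAA, in which N is any base. The motif reads the same on both strands, and its matches are in capitals.

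Cish: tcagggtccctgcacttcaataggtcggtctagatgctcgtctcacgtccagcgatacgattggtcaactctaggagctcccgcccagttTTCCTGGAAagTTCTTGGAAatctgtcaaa

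Socs3: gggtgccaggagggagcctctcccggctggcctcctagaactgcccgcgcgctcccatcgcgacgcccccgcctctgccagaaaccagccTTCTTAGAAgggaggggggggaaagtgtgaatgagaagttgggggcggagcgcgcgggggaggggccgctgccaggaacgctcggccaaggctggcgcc

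The Cish stretch lies at chr9:107296569-107296688 on the plus strand and the Socs3 stretch at chr11:117969422-117969610 on the minus strand of GRCm38.p6. The matches of Cish begin at bases 1 and 12 counted from the RefSeq start site, and that of Socs3 begins at base -154. Of 32851 RefSeq promoter windows, each of 250 bases before and 50 after a start site, 8.30% held the motif and 0.457% held at least 2 copies. The windows of Socs1, Pim1 and Pim2 held none, and Socs2 had no entry in the table. A match describes letters in the window and is not evidence of binding.

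The selected cells were a larger share of the sorted progenitors in the leukemic marrow. They were 22.9% of all cells of the B-ALL environment (21.8 to 23.96%) and 5.13% of those of the PBS control (4.58 to 5.73%), a ratio of 4.45 (3.93 to 5.06). The share says nothing about cell numbers in the marrow, because both groups were deposited with the same number of cells and the sort sets the denominator. The ratio depended on the markers counted: it was 8.17 without Hlf and 7.14 without Mecom, and 6.88 when every cell was first thinned at random to the depth threshold. On the deposited map most selected cells lay in 1 region in both groups, with medians of 0.443 and -2.73 on its axes in the B-ALL environment and -0.0379 and -2.66 in the PBS control.

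**Figure D1:**
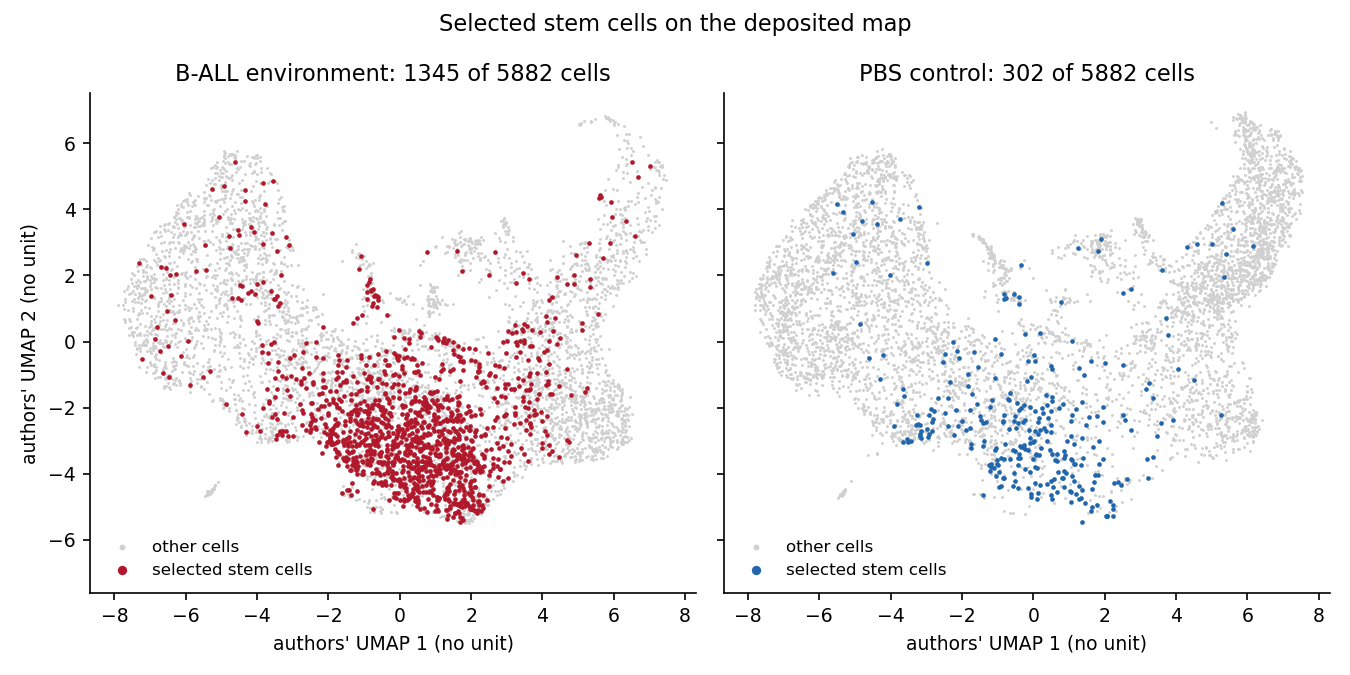
Each point is 1 cell at its place on the authors' UMAP (2 axes without unit), with the B-ALL environment on the left and the PBS control on the right. The selected stem cells (coloured) number 1345 in the B-ALL environment and 302 in the PBS control, lie mostly at the lower centre in both groups, and are thinly scattered over the rest of the map, among all other cells (grey).

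Selected cells of the B-ALL environment carried more of the markers per cell, and were also deeper, with a median of 8905 UMIs against 7637 in the PBS control. Counted after thinning to the depth threshold, 3, 4 and 5 markers were found in 312, 134 and 43 cells of the B-ALL environment. In the PBS control they were found in 62, 19 and 2 cells. As counted, exactly 3 markers were found in 604 selected cells of the B-ALL environment (44.9%) and in 215 of the control cells (71.2%). Cells with 4, 5 and 6 markers numbered 396, 223 and 107 in the B-ALL environment and 63, 21 and 3 in the PBS control, and 7 or 8 markers were found in 13 and 2 cells of the B-ALL environment and in no control cell. Just outside the threshold, with 2 markers, were 755 cells in the B-ALL environment and 656 in the PBS control. Most control cells were therefore at the edge of the selection, and folds were also computed with leukemic-marrow cells weighted to the control's numbers of markers, an alternative chosen after the data were seen.

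**Figure D2:**
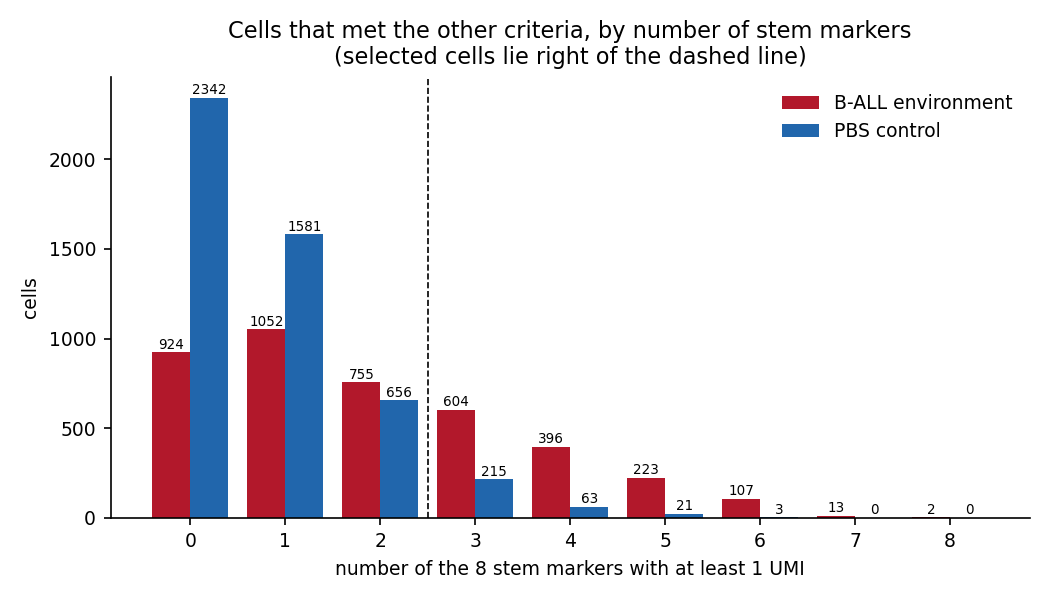
Bars give the number of cells (vertical axis) that met the criteria on depth, Pf4, Vwf and interferon genes, by how many of the 8 stem markers they held (horizontal axis). Cells with 3 or more, right of the dashed line, are the selected ones, and the PBS control (blue) falls off faster beyond 3 than the B-ALL environment (red): 396 cells in the B-ALL environment and 63 in the PBS control held 4 markers.

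Hlf and Mecom were the markers found most often in both groups, while the level of Fgd5 differed most between them. Mecom was found in 74.7% of selected cells of the B-ALL environment, near Ly6a (68.8%) and Pdzk1ip1 (67.7%). In the PBS control the shares were 82.5% for Mecom, 55.3% for Ly6a and 61.6% for Pdzk1ip1. Hlf stood at 385.5 CPM (the UMI count on the scale of a common library size) in selected cells of the B-ALL environment and 418 CPM in those of the PBS control, and Mecom at 141 CPM in the B-ALL environment and 145 CPM in the PBS control. Hlf was found in 93.5% of the selected cells of the B-ALL environment and 95.7% of those of the PBS control. Among erythroid cells Hlf was found in 31.3% of 316 in the B-ALL environment (median depth 15130 UMIs). In the PBS control it was found in 12.5% of 1291 (median depth 10641 UMIs). Erythroid cells were not required to lack stem markers. Fewer than 3 markers were held by 254 of the 316 in the B-ALL environment and 1270 of the 1291 in the PBS control. The selected cells themselves made up 25 of the 316 and 9 of the 1291. Slamf1 separated poorly: it was found in 20.3% of selected cells of the B-ALL environment and 13.9% of those of the PBS control, no more than in erythroid cells, at 34.8% in the B-ALL environment and 16.3% in the PBS control. Fgd5, which marks stem cells in mice, had 366 UMIs (25.7 CPM) in the B-ALL environment and 12 UMIs (4.41 CPM) in the PBS control. Procr stood at 41.1 CPM in the B-ALL environment and 27.2 CPM in the PBS control, and Ly6a at 142 CPM in the B-ALL environment and 94.0 CPM in the PBS control. The log2 folds were 2.54 for Fgd5, 0.60 for Procr and 0.60 for Ly6a. With marker numbers matched they were 1.72, 0.015 and 0.37 in the same order. Interferon genes below the limit were present too: 443 cells in the B-ALL environment and 86 in the PBS control had 1 of the 4, and 171 in the B-ALL environment and 21 in the PBS control had 2. Cells with 3 of them, just outside the limit, numbered 50 in the B-ALL environment and 4 in the PBS control.

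Genes that the selection did not use also set these cells apart from the cells with fewer than 3 markers, in both groups. Nkx2-3, a homeobox factor, was higher by a log2 fold of 2.55 over those other cells in the B-ALL environment and 3.01 in the PBS control. Cdkn1c, which encodes the cell cycle inhibitor p57, was higher by 2.76 in the B-ALL environment and 3.36 in the PBS control. Prex2 was higher by 3.65 in the B-ALL environment and 4.0 in the PBS control, Abcg3 by 3.32 in leukemic and 3.63 in control mice, and Myl10 by 2.77 in leukemic and 3.06 in control mice. The other genes named by the rule for shared genes were Lhcgr, Meg3, H2-Aa, Gm4951 and Gimap1os. Their log2 folds lay between 2.71 and 3.46 in the B-ALL environment and between 3.45 and 8.02 in the PBS control. The 8.02 is that of Meg3 (5.23 to 13.44), which had 11 UMIs in selected and 1 UMI in other control cells. The cells share a library with those they are set against, so these folds are descriptions without a test. Esam, an adhesion molecule of stem cells, was at 56.6 CPM in selected and 10.9 CPM in other cells of the B-ALL environment, and at 20.6 CPM in selected and 3.21 CPM in other cells of the PBS control.

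The label of stem cells held in part. Genes of progenitors were not all lower than in cells with fewer than 3 markers. Over those cells Cd48 had a log2 fold of -0.27 in the B-ALL environment and 0.04 in the PBS control. In the same order Cd34 had 0.14 and 0.76, Flt3 -0.02 and 0.91, and Dntt, a lymphoid gene, -0.11 and 1.45. Mpo, a granulocyte gene, was lower in both, at -2.10 and -1.26. At least 3 of 7 mitosis genes were detected in 38.6% of selected cells of the B-ALL environment and in 40.1% of those of the PBS control. Among cells with fewer than 3 markers the shares were 59.6% in the B-ALL environment and 56.2% in the PBS control. Thinned to the depth threshold, the selected cells had shares of 24.7% in the B-ALL environment and 21.2% in the PBS control, and the other cells had 35.1% in the B-ALL environment and 32.9% in the PBS control. At least 3 of 5 erythroid genes were found in 25 selected cells of the B-ALL environment (1.86%) and in 9 of the PBS control (2.98%). Transcripts of other cell types were present. The 7 B cell genes in the matrix summed to 70.8 CPM in selected cells of the B-ALL environment and 128.5 CPM in those of the PBS control, and in erythroid cells to 27.8 CPM in the B-ALL environment and 31.2 CPM in the PBS control. The 12 macrophage and monocyte genes summed to 247 CPM in selected cells of the B-ALL environment and 325 CPM in those of the PBS control, and in erythroid cells to 86.6 CPM in the B-ALL environment and 76.3 CPM in the PBS control. The 8 T and NK cell genes, of which 3 were at 0 in control cells, summed to 199 CPM in the B-ALL environment and 292 CPM in the PBS control. Of these sums Nkg7 alone held 173 and 273.5 CPM. In erythroid cells the 8 genes summed to 225 CPM in the B-ALL environment, above the selected cells, and 128 CPM in the PBS control. The 7 endothelial and stromal genes summed to 278 CPM in selected cells of the B-ALL environment and 318 CPM in those of the PBS control. In erythroid cells they summed to 143 CPM in the B-ALL environment and 154 CPM in the PBS control. Granulocyte and monocyte genes were far more abundant, at 5736 CPM in the B-ALL environment and 8530 CPM in the PBS control.

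Between the groups, 9186 genes had enough UMIs for a fold (a mean of at least 10 CPM and at least 30 UMIs in all). Folds set leukemic mice over controls on TMM-scaled sums, and a gene counted as higher or lower if its fold passed 1.5 and its counting interval excluded 1. By this rule 377 genes (4.1%) were higher and 317 (3.45%) were lower in the stem cells of leukemic mice. These shares are the background for the counts of every gene list below. The median log2 fold over all genes was 0.0069. Of the 377 higher genes 199 were also higher in the cells with fewer than 3 markers, 1 was lower there and 177 passed neither way. Of the 317 lower genes 106 were also lower there, 2 were higher and 209 passed neither way. Among the genes without a call in the selected cells, 137 were higher there, 92 were lower and 8263 passed neither way. Genes called in only 1 kind of cell were not tested for a difference between the kinds. With the numbers of markers matched, 307 of the 377 and 254 of the 317 stayed past the fold. Of 124 called genes that belong to the gene lists or are named, 74 stayed past the fold wherever they had a value in 6 other settings (at least 2 markers, at least 4 markers, thinned cells, no cycling cells, Ly6a left out, and matched numbers of markers). The other 50 fell under it in at least 1 of these, and 9 of them turned direction.

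Genes of cytokine feedback were among those with the largest folds. Socs2, an inhibitor of growth hormone and cytokine receptors, had 1967 UMIs in selected cells of the B-ALL environment (138 CPM) and 20 UMIs in those of the PBS control (7.34 CPM), a log2 fold of 4.23 (3.60 to 4.95). A Socs2 transcript was found in 57.0% of these cells in the B-ALL environment and in 5.96% in the PBS control, against 27.5% of erythroid cells in the B-ALL environment and 1.78% in the PBS control. Thinned to the depth threshold, the shares in selected cells were 32.7% in the B-ALL environment and 2.32% in the PBS control. The difference was not confined to the stem cells, since Socs2 also had a log2 fold of 3.90 in cells with fewer than 3 markers.

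Cish stood at 82.9 CPM in selected cells of the B-ALL environment and 10.6 CPM in those of the PBS control, a log2 fold of 2.96 (2.43 to 3.55). Socs1, an inhibitor of JAK kinases, stood at 41.2 CPM in leukemic and 7.0 CPM in control mice, with a log2 fold of 2.56 (1.91 to 3.31). Socs3 had a log2 fold of 2.18, and the survival kinases Pim2 and Pim1 had 2.90 and 0.70. In all, 6 of the 24 tested genes of the SOCS and JAK-STAT feedback list were higher and none was lower, beside a background of 4.1% higher. The list's median log2 fold was 0.05, so the other 18 genes lay around no change.

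**Figure D3:**
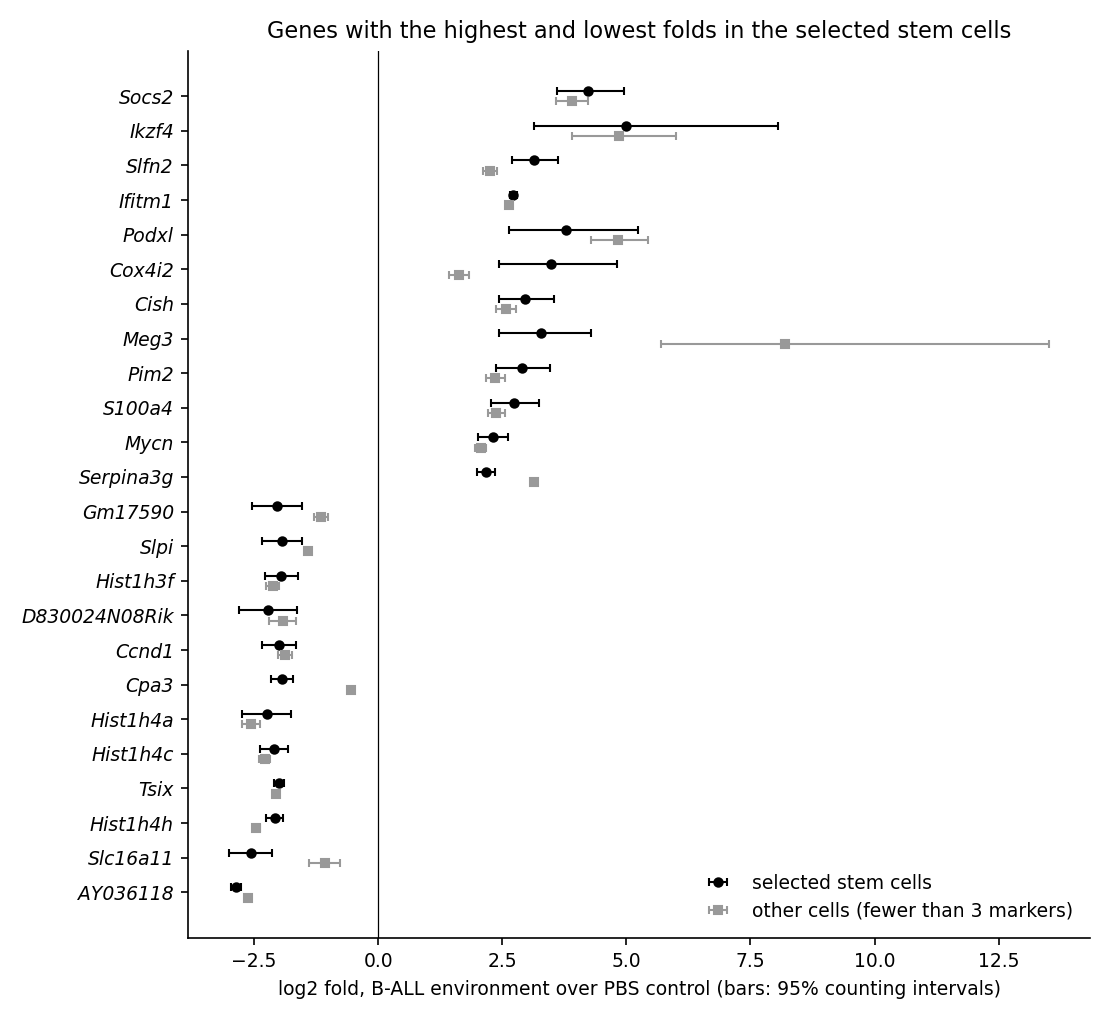
Log2 folds, leukemic mice over controls (horizontal axis), for the 12 genes with the highest and the 12 with the lowest folds by the bound of the interval nearest to 0, in selected stem cells (black circles) and in cells with fewer than 3 markers (grey squares). Bars are 95% counting intervals, and all 24 genes lie on the same side of 0 in both kinds of cells, with Socs2 at 4.23 and 3.90.

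Further genes stood far higher in the stem cells of leukemic mice. Ikzf4, which encodes the Ikaros family factor Eos, had 334 UMIs in the B-ALL environment and 2 in the PBS control, a ratio of 31.9 with a counting interval of 8.76 to 264. Ifitm1, which encodes an interferon-induced membrane protein, had 59651 UMIs (4182 CPM) in the B-ALL environment and 1724 UMIs (633 CPM) in the PBS control, a log2 fold of 2.72 (2.66 to 2.79). Serpina3g, a protease inhibitor, stood at 423 CPM in the B-ALL environment and 94.0 CPM in the PBS control, a log2 fold of 2.17. Mycn, a MYC family factor, stood at 176 CPM in leukemic and 35.6 CPM in control mice, a log2 fold of 2.30 (2.01 to 2.61). Slfn2, of the Schlafen family, had a log2 fold of 3.15, Cox4i2 of 3.49, Meg3 (a long noncoding RNA) of 3.28 and S100a4 (a calcium-binding protein) of 2.73. Podxl, a sialomucin of stem cells and endothelium, had 430 UMIs in the B-ALL environment and 6 in the PBS control, a log2 fold of 3.78 (2.64 to 5.23).

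Some transcription factors of the stem cell program were higher in the stem cells of leukemic mice. Of 25 tested, 9 were higher and none was lower, beside a background of 4.1% higher, and 6 had folds below 0. The median log2 fold was 0.36 in the selected cells and 0.30 in cells with fewer than 3 markers, and in the selected cells it was 0.17 with at least 4 markers and 0.16 after thinning. Beside Mycn these included Tcf15 at 1.45 (0.81 to 2.16), Nkx2-3 at 1.09 (0.82 to 1.37), Gfi1b at 0.99 (0.60 to 1.40), Gata3 at 0.96, Hoxa5 at 0.78, Prdm16 at 0.76 and Hoxb4 at 0.67. Gfi1b had 0.12 with at least 2 markers and 0.42 with at least 4, under the fold of the call. Tcf15 (0.38) and Prdm16 (0.16) were under it after thinning, Hoxa5 without cycling cells (0.53) and Hoxb4 with marker numbers matched (0.49). Tcf15 has been tied to quiescent stem cells in mice, and Gfi1b to stem cells and the erythroid and megakaryocyte lineages.

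The surface antigens of stem cell gates moved both ways. KIT, the antigen used for the sort, had lower transcript: Kit stood at 267 CPM in selected cells of the B-ALL environment and 505 CPM in those of the PBS control, a log2 fold of -0.92 (-1.01 to -0.83). Cd34, an antigen of progenitors that long-term stem cells carry at a low level in mice, stood at 360.5 CPM in leukemic and 576 CPM in control mice (-0.68, -0.76 to -0.59), and Flt3, a receptor of multipotent and lymphoid progenitors, at 54.9 CPM in leukemic and 96.9 CPM in control mice (-0.82, -1.02 to -0.61). Esam had a log2 fold of 1.46 (1.07 to 1.88) and Cd9 of 0.59. Cd48, whose protein long-term stem cells of mice lack, stood at 174 CPM in leukemic and 175 CPM in control mice, a log2 fold of -0.02 (-0.16 to 0.13). Ptprc, which encodes the CD45 antigen of the sort, had 0.12 (-0.01 to 0.25). Of the 17 antigens tested 3 were higher and 3 lower. With at least 2 markers Cd34 (-0.41) and Flt3 (-0.45) were short of the call, and with at least 4 Cd9 was (0.40). Kit had nearly the same log2 fold in cells with fewer than 3 markers (-0.90), whereas Cd34 had -0.04 and Flt3 0.11 there; the difference between the kinds of cells was not tested.

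Receptors for cytokines were balanced, with 3 of 23 higher and 3 lower. Csf2rb (the shared chain of the interleukin 3 and GM-CSF receptors, 0.98, 0.66 to 1.31) and Il18r1 (1.49, 0.84 to 2.22) were among the higher, and Kit, Flt3 and Il6ra (-0.77) were lower. After thinning Il6ra turned to 0.26 and Csf2rb had 0.26.

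Genes tied to dormancy were higher in part. Of 23 tested, 8 were higher and none lower, beside a background of 4.1% higher. The median log2 fold was 0.25 in selected cells and 0.19 in cells with fewer than 3 markers. The cell cycle inhibitor Cdkn1a stood at 27.6 CPM in the B-ALL environment and 11.7 CPM in the PBS control (1.23, 0.71 to 1.80), Cdkn1c at 28.2 CPM in leukemic and 16.2 CPM in control mice (0.80, 0.35 to 1.29), and Ndn, linked to quiescence in mouse stem cells, at 19.98 CPM in leukemic and 6.24 CPM in control mice (1.68, 0.97 to 2.48). Beside Ifitm1, Ifitm3 was at 1542 CPM in leukemic and 660 CPM in control mice (1.23), Ltb, which encodes lymphotoxin beta, had 1.37, Trim47 had 1.25 and Klf6 had 0.64. Under the fold of the call were Cdkn1c with at least 4 markers (0.44) and Klf6 after thinning (0.03). In cells with fewer than 3 markers Ifitm1 had 2.63, Ltb 2.08, Ndn 1.89, Cdkn1c 1.41, Ifitm3 1.10 and Cdkn1a 0.77, all called higher. Klf6 had 0.26 there, short of the call. The difference between the kinds of cells was not tested. Of 9 tested genes of the p53 target list, Cdkn1a was higher and none was lower, while Sesn1 (-0.48) and Btg2 (-0.51) fell short of the call.

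Few cell cycle genes passed the call, but over all genes only 4.1% were higher and 3.45% lower. The counts of the S phase, G2/M and MYC target lists lie near that background. Of 44 S phase genes 1 was higher (Rrm2, 0.70) and 1 lower (Dscc1, -0.71), and of 53 G2/M genes Cdca2 was higher (0.92) and none lower. The G2/M genes had a median log2 fold of 0.18, with 45 members above 0, and this median was -0.09 after thinning and -0.36 without cycling cells. Without the cells that held at least 3 of 7 mitosis genes the directions of Rrm2 and Cdca2 turned, to -0.23 and -0.01. Mki67 stood at 516 CPM in the B-ALL environment and 387 CPM in the PBS control, a log2 fold of 0.42 (0.32 to 0.51), short of the call. Its direction turned after thinning (-0.23) and without cycling cells (-0.18). Mki67 is 1 of the 7 genes by which cycling cells were left out, so that setting bears on its value and on the G2/M median. Ccnd1, which encodes cyclin D1, stood at 12.1 CPM in leukemic and 48.1 CPM in control mice, a log2 fold of -2.0 (-2.33 to -1.66), as the 1 called gene of 12 D cyclins and partners, and Ccnd3 had 0.55 and Ccnd2 -0.22. No gene of 32 MYC targets and ribosome biogenesis genes was called either way, with a median log2 fold of 0.04 and members between -0.22 and 0.36.

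In the list of type I interferon response genes no member was higher, although cells with up to 2 of the selecting genes were kept. With 31 tested and a background of 4.1% higher and 3.45% lower, calls were about as few as over all genes. The interferon-induced genes Ifitm1 (2.72) and Ifitm3 (1.23) were counted in the dormancy list and were higher. Of 31 tested, the 4 selecting genes aside, none was higher and Irf7, a factor that amplifies the response, was lower (-0.65, -1.10 to -0.18; -0.26 with at least 2 markers), with a median log2 fold of -0.04 beside 0.0069 over all genes. Isg15, a ubiquitin-like protein, stood at 24.7 CPM in the B-ALL environment and 34.9 CPM in the PBS control (-0.49, -0.83 to -0.15). The selection removed cells with a strong response, so it bears on these values.

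Genes of interferon gamma response and antigen presentation split, with 5 of 30 higher and 4 lower and a median of -0.03. Socs1, Serpina3g, Cd74 (which guides MHC class II chains, 31.8 CPM in leukemic and 7.34 CPM in control mice, 2.11), Cd274 (PD-L1, 1.15) and H2-Aa (an MHC class II chain, 0.74) were higher. H2-Aa was under the fold of the call in 4 of the 6 other settings, with 0.33 at matched numbers of markers. Ly6c2 (-1.63), Tap2 (-0.91), Irf8 (-0.82) and Psmb8 (-0.65) were lower; Ly6c2 and Irf8 are also genes of monocytes. With at least 2 markers Irf8 (-0.53) and Psmb8 (-0.53) were short of the call.

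The TNF and NF-kB list had 8 of 21 members higher and none lower, beside a background of 4.1% higher. Its median log2 fold was 0.39 in selected cells and 0.36 in cells with fewer than 3 markers. Bcl3, an atypical inhibitor of kappa B, stood at 24.4 CPM in the B-ALL environment and 6.24 CPM in the PBS control (1.97, 1.27 to 2.76). Relb (1.14) and Nfkb2 (0.86) encode the subunits of the noncanonical pathway, Map3k8 (1.12) a kinase upstream, and Nfkbia (0.64) and Nfkbie (0.69) inhibitors. Ier3 (0.83) and Gadd45b (0.74) were the others. Nfkbie was short of the call with at least 2 markers (0.44) and Nfkbia without cycling cells (0.55). Of 12 AP-1 and immediate early genes 3 were higher, among them Jund (0.68, 0.53 to 0.83; 0.57 with marker numbers matched), and none was lower. Of 9 Notch, BMP and TGF-beta genes 1 was higher and 1 lower. Id1, a target of BMP signals, stood at 24.1 CPM in leukemic and 3.30 CPM in control mice (2.87, 1.93 to 4.01), while Smad7, an inhibitor of TGF-beta signals, had -0.68, a direction that turned when cells were thinned (0.48).

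Adhesion and matrix genes held 8 higher and 2 lower members of 21, beside a background of 4.1% higher and 3.45% lower. Beside Podxl and Esam, Tgm2 (transglutaminase 2, 2.21, 1.62 to 2.87), Timp3 (an inhibitor of metalloproteinases, 2.14, 1.44 to 2.93), Clu (1.29), Mmrn1 (0.68), Itga6 (0.64) and Selp (0.63) were higher. Cd44 (-0.63) was among the lower. Mmrn1 was short of the call in 5 of the 6 other settings (0.09 after thinning), Selp without cycling cells (0.41), Itga6 with marker numbers matched (0.55) and Cd44 with at least 2 markers (-0.34).

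**Figure D4:**
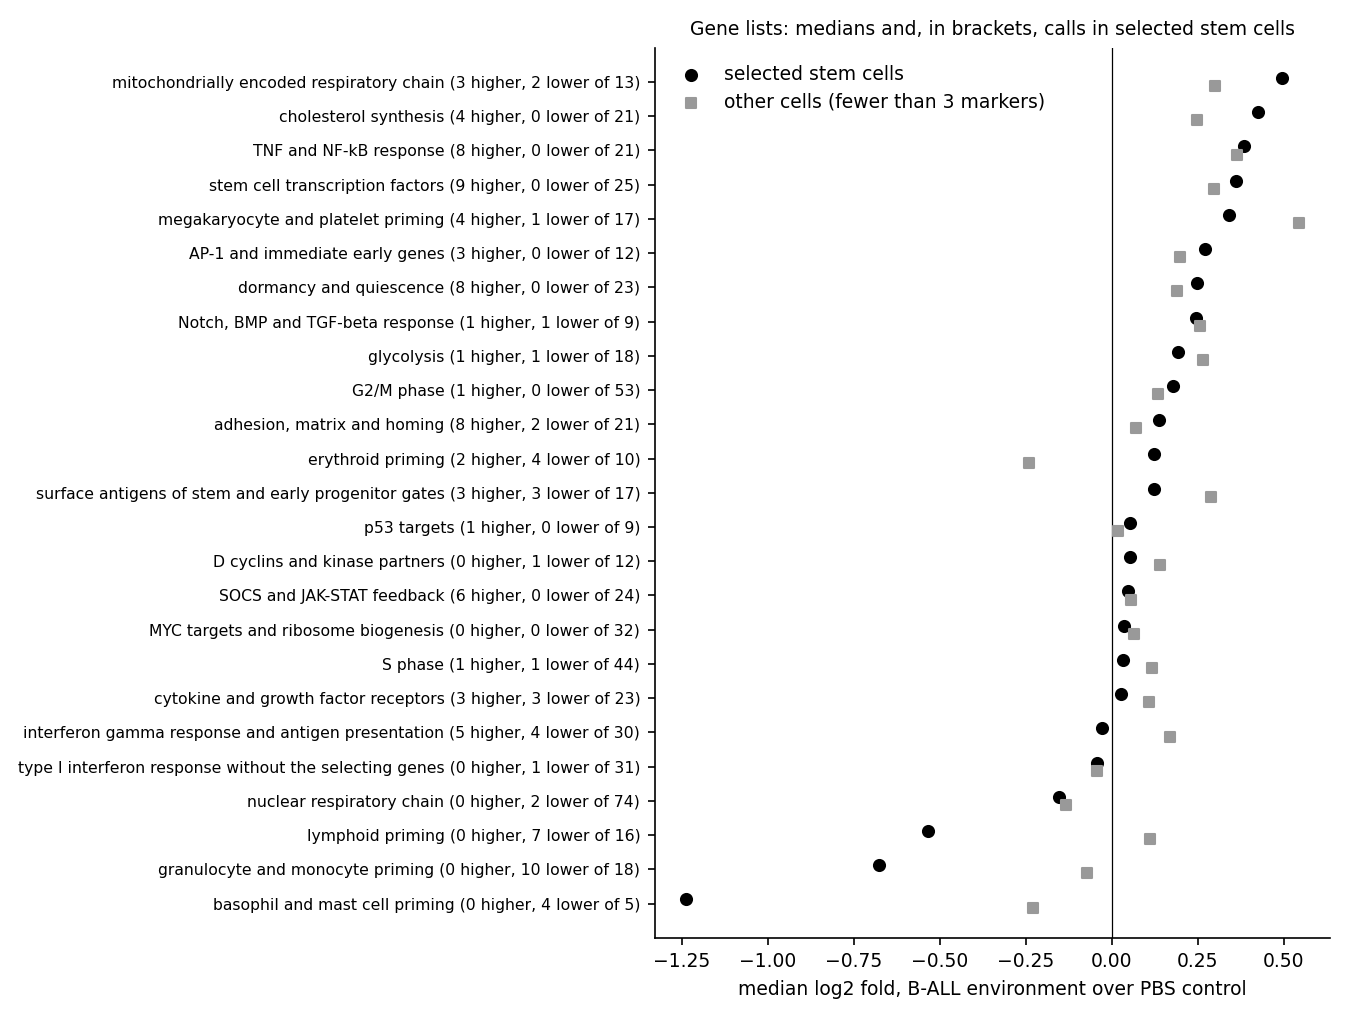
Each row is a gene list with at least 5 tested members, with its median log2 fold, leukemic mice over controls (horizontal axis), in selected stem cells (black circles) and in cells with fewer than 3 markers (grey squares). Brackets give how many members were higher and lower in selected cells; the lymphoid, granulocyte and basophil lists have the lowest medians in selected cells (-0.53, -0.68 and -1.24), below those in the other cells.

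Many granulocyte, lymphoid and basophil genes were lower in the stem cells of leukemic mice, while the erythroid and megakaryocyte lists had called members both ways. Of 18 tested granulocyte and monocyte genes, 10 were lower and none higher, beside a background of 3.45% lower, with a median log2 fold of -0.68 in selected cells and -0.07 in cells with fewer than 3 markers. Mpo, myeloperoxidase of neutrophil granules, stood at 544 CPM in the B-ALL environment and 1327 CPM in the PBS control (-1.29, -1.34 to -1.23). Ctsg, cathepsin G, stood at 261 CPM in leukemic and 746 CPM in control mice (-1.52, -1.60 to -1.44), and Elane, neutrophil elastase, at 284 CPM in leukemic and 595 CPM in control mice (-1.07, -1.15 to -0.98). The factors Cebpe (-1.34) and Cebpa (-1.02) and the chemokine Ccl9 (-1.14) were lower too. With at least 2 markers Elane (-0.44) and Cebpa (-0.56) were short of the call.

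Free RNA from other cells can reach these droplets, and its part in the result was not tested. Erythroid cells should lack granulocyte transcripts, but the set included 25 selected cells in the B-ALL environment and 9 in the PBS control. It held Mpo at 141 CPM in the B-ALL environment and 416 CPM in the PBS control. Ctsg stood at 67.5 CPM in the B-ALL environment and 275 CPM in the PBS control. A transcript of Mpo was found in 38.0% of selected cells of the B-ALL environment and in 84.8% of those of the PBS control, against 25.0% of erythroid cells in the B-ALL environment and 73.0% in the PBS control. Summed over the whole list, erythroid cells held 2921 CPM in the B-ALL environment and 3513 CPM in the PBS control, with no gene at 0 in selected cells. The list's median was -0.46 with the numbers of markers matched, -1.05 after thinning and -1.17 without cycling cells.

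Lymphoid priming genes were lower in 7 of 16 and higher in none, beside a background of 3.45% lower. Their median was -0.53 in selected cells and 0.11 in cells with fewer than 3 markers. Dntt, the terminal transferase of lymphoid progenitors, stood at 49.5 CPM in the B-ALL environment and 156 CPM in the PBS control (-1.66, -1.83 to -1.48). Ighm, the heavy chain of immunoglobulin M, which also is transcribed before a B cell receptor exists, stood at 21.2 CPM in leukemic and 70.8 CPM in control mice (-1.74, -2.0 to -1.47), and Il12a at 22.4 CPM in leukemic and 58.0 CPM in control mice (-1.37, -1.65 to -1.09). Cd52 (-1.05), Flt3 and Satb1 (-0.65) were lower too, and Satb1 was short of the call with at least 4 markers (-0.31). Erythroid cells held Dntt at 1.78 CPM in the B-ALL environment and 9.14 CPM in the PBS control.

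Basophil and mast cell genes were lower in 4 of 5, with a median of -1.24. Cpa3, carboxypeptidase A of mast cells, stood at 29.3 CPM in the B-ALL environment and 112 CPM in the PBS control (-1.93, -2.15 to -1.72), and Ms4a2 (-1.42), Mcpt8 (-1.24) and Hdc (-1.12) rested on 46 to 60 control UMIs each. Among these, the direction changed in an alternative for Ms4a2 with at least 4 markers and for Mcpt8 without cycling cells.

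The erythroid list was mixed, with 2 of 10 higher and 4 lower. Car1, a carbonic anhydrase of early erythroid cells, stood at 35.7 CPM in the B-ALL environment and 108 CPM in the PBS control (-1.59, -1.80 to -1.38), but its direction turned among cells with at least 4 markers (0.51). Gata1, the leading erythroid factor, stood at 21.6 CPM in leukemic and 11.4 CPM in control mice (0.92, 0.39 to 1.51), although it had -0.60 in cells with fewer than 3 markers and its direction turned in cells with at least 2 markers (-0.53). Hbb-bt was higher (1.93) and Hbb-bs lower (-1.14), and reads of these nearly identical globin genes can be assigned to either. Of 17 megakaryocyte genes 4 were higher and 1 lower, with Plek (-0.90, -1.10 to -0.70) the lower one; cells with Pf4 or Vwf had been left out.

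Among energy genes, 13 respiratory genes are encoded in the mitochondria. Of these 3 were higher and 2 lower, with a median log2 fold of 0.50: mt-Co3 stood at 12320 CPM in the B-ALL environment and 6651 CPM in the PBS control (0.89), and mt-Cytb at 7457 CPM in leukemic and 4294 CPM in control mice (0.80), while mt-Atp8 had -0.92 and mt-Nd6, which lies on the opposite strand to the rest, -0.80. Of 74 nuclear respiratory genes 2 were lower (Ndufa4, -0.77, and Cox7b, -0.59) and none higher, fewer than the background of 3.45% lower and 4.1% higher, with a median of -0.15 and 57 members below 0. Both fell short of the call after thinning (-0.54 for Ndufa4 and -0.36 for Cox7b). Cholesterol synthesis had 4 of 21 higher and none lower, with a median of 0.42, among them Sc5d (0.91) and Msmo1 (0.80, 0.50 to 1.12). Glycolysis had 1 of 18 higher (Ldhb, 0.60) and 1 lower (Hk2, -0.63); Ldhb was short of the call in 4 of the 6 other settings and Hk2 in 5.

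The 12 genes with the lowest folds also had folds below 0 in cells with fewer than 3 markers. AY036118 stood at 96.1 CPM in selected cells of the B-ALL environment and 705 CPM in those of the PBS control (-2.87, -2.98 to -2.77), with -2.63 in cells with fewer than 3 markers. In erythroid cells it stood at 79.3 CPM in the B-ALL environment and 626 CPM in the PBS control. Tsix, the antisense partner of Xist, had -2.0 in selected and -2.05 in other cells, and since strand handling is not given in the sources used here, its reads cannot be told from those of Xist. Hist1h4h (-2.09), Hist1h4c (-2.10), Hist1h4a (-2.25) and Hist1h3f (-1.95) belong to multigene histone families, among whose members reads can be split. Slc16a11, a transporter, was at 6.24 CPM in leukemic and 37.1 CPM in control mice (-2.57, -3.0 to -2.15), with -1.07 in other cells, and Slpi, a protease inhibitor, had -1.95. D830024N08Rik (-2.22) and Gm17590 (-2.03) complete the 12.

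Along the number of markers, inside and outside the selection, the levels of Mycn and Ifitm1 were higher at each step in both groups, and those of Socs2 in the B-ALL environment. Cells were thinned to the depth threshold for this, counting markers after thinning, which left 312 and 188 cells with 3 and with 4 or more markers in the B-ALL environment and 62 and 21 in the PBS control. Along 0, 1, 2, 3 and 4 or more markers, Socs2 stood at 17.1, 68.7, 132, 213 and 341 CPM in the B-ALL environment, and at 1.5, 1.9, 4.4, 5.3 and 31.0 in the PBS control, where the last 3 steps rest on 4, 1 and 2 UMIs. Mycn stood at 45.0 with none and 291 with 4 or more in the B-ALL environment, and at 12.6 with none and 93.1 with 4 or more in the PBS control. Ifitm1 reached 8105 with 4 or more markers in the B-ALL environment and 1722 in the PBS control. Even with no marker Ifitm1 stood at 2164 in the B-ALL environment, above every step of the PBS control.

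Other genes kept or lost their difference along the markers. Kit was lower in the B-ALL environment at every step: with 4 or more markers it stood at 260 CPM (220 to 305), against 605 (430 to 827) in the control. Cd34 with 3 markers stood at 311 in the B-ALL environment and 657 in the PBS control, but with 4 or more at 286 (244 to 333) in the B-ALL environment and 310 (190 to 479) in the PBS control, intervals that overlap. Mpo fell along the markers in both groups, to 38.1 in the B-ALL environment and 403 in the PBS control with 4 or more. Cd48 was lowest with 4 or more, at 55.4 in the B-ALL environment and 46.5 in the PBS control. The control value rests on 3 UMIs, and its interval (9.6 to 136) holds the control level with 3 markers (121). Mki67 with 4 or more markers stood at 104 (79.3 to 134) in the B-ALL environment, and no UMI was found in the 21 control cells, for which 3 UMIs would be a level of 46.5; with 3 markers it was lower in the B-ALL environment, at 181 (155 to 210) against 278 (209 to 364) in the control.

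**Figure D5:**
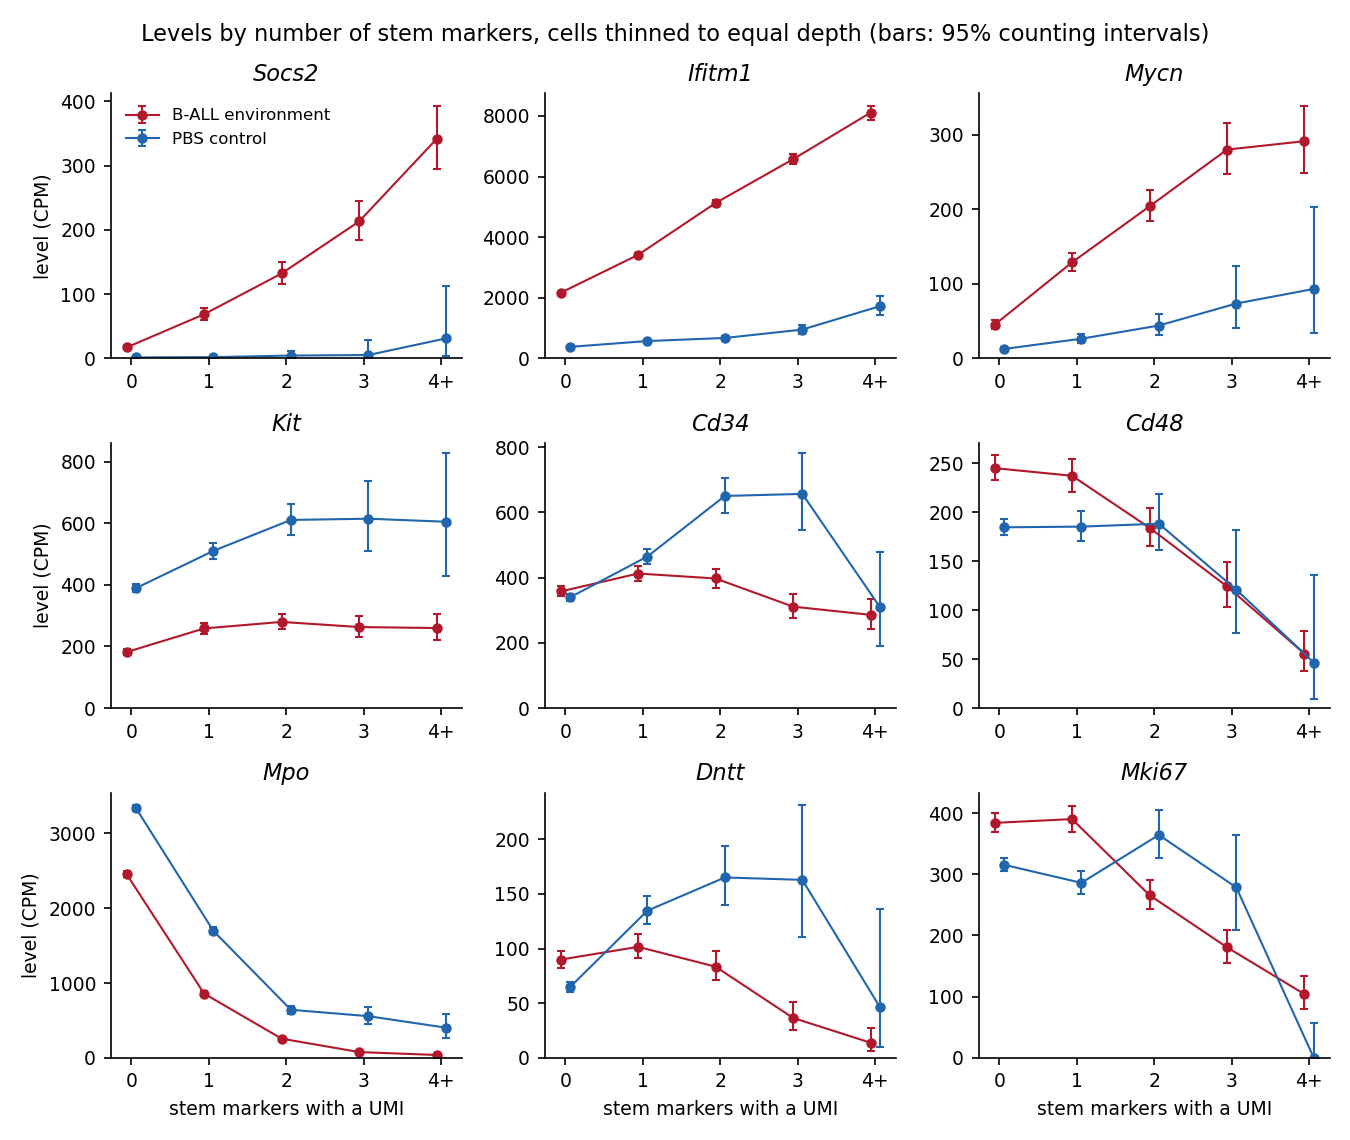
Levels in CPM (vertical axes, each from 0) of 9 genes outside the rule, by the number of stem markers with a UMI (horizontal axes), in cells thinned to the depth threshold; red is the B-ALL environment, blue the PBS control, and bars are 95% counting intervals. Socs2 and Ifitm1 increase with the markers, most in the B-ALL environment, and Kit is lower there at every step. Mpo and Cd48 are lowest with 4 or more markers in both groups, where Cd48 rests on 3 UMIs in the PBS control.

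Beside the other stem cells of leukemic mice, the selected cells had less of several of these genes. Socs2 stood at 138 CPM in selected cells of the B-ALL environment, 222 CPM in its 249 Vwf-positive stem cells and 225 CPM in its 64 interferon-high stem cells. Mycn stood at 176 CPM in selected, 285.5 CPM in Vwf-positive and 272 CPM in interferon-high cells. Kit stood at 267 CPM in selected, 258 CPM in Vwf-positive and 270.5 CPM in interferon-high cells. Cd34 was at 360.4 CPM in the selected, 195 CPM in the Vwf-positive and 350 CPM in the interferon-high cells, and Cd48 at 173.5 CPM in selected, 60.3 CPM in Vwf-positive and 113 CPM in interferon-high cells. Only 11 control cells with Vwf and 8 interferon-high control cells were found, too few for levels to be set beside these.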

How the data were processed

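Host KIT+Lin-CD45.2-CD45.1+ marrow cells of mice with B-ALL and of PBS controls were measured with the 10x Chromium 3' kit, version 3, 2 samples per group. The tools Cell Ranger 4 and Seurat 4.0.1 and the mm10 build are named per the submitters' processing notes. Counts are deposited as whole UMIs of 13978 gene symbols in each cell, not normalized. Group prefix, UMI total, gene number and map coordinates of each cell come from a second deposited table and were used as other values, unaltered. How cells and genes were filtered, why both groups have 5882 cells and how strands were handled are not given in the sources used here. Single cells could not be assigned to samples, so the planned edgeR quasi-likelihood test could not be run. No per-sample column was left unused (0).

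The members and the 29 gene lists were chosen with earlier results of these data known. UMIs of selected cells were summed and TMM-scaled in edgeR 4.0.16 under R 4.3.3, and folds have exact conditional 95% Poisson intervals (scipy 1.17.1). Shares have exact Clopper-Pearson intervals. Intervals cover counting error only, and floors are 3 UMIs. Erythroid cells held at least 3 of Klf1, Ermap, Car1, Gata1 and Epor, whatever their number of stem markers, so some were also selected cells. The 7 mitosis genes were Mki67, Top2a, Cenpf, Ube2c, Tpx2, Cdk1 and Birc5. Thinning drew from each cell, with seed 1, as many UMIs as the depth threshold. No doublet caller was run, and an alternative left out cells over 2 times the median UMIs. The scripts were checked on simulated counts.

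Genes named by rule were the 12 highest and 12 lowest by the bound of the interval nearest to 0, up to 4 members of each list by that bound, 10 shared by selected cells of both groups, and Ptprc, Kit, Cd34, Cd48, Flt3, Esam, Socs2 and Cish. Other called members are named to complete a list's count, and these, Socs3, Gata1 and the genes without a call set beside them were chosen after their values were seen. Alternatives changed the scaling (plain totals, or DESeq2 1.42.0 size factors), the filter, the selection, the depth and the weighting of cells. Promoters are from RefSeq (GRCm38.p6), searched for TTCNNNGAA. Tables and figures were made in python 3.11.15 with pandas 2.3.3, numpy 2.4.6 and matplotlib 3.10.9.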

Additional observations from a re-analysis of the deposited data

Results flagged for a closer look

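Hbb-bs had a log2 fold of -1.14 in the selected stem cells and 3.65 in cells with fewer than 3 markers, opposite directions of the same contrast, and the difference between the kinds of cells was not tested. It stood at 10.3 CPM in selected cells of the B-ALL environment and 22.8 CPM in those of the PBS control, and in erythroid cells at 1050 CPM in the B-ALL environment and 16.1 CPM in the PBS control. Ighm had -1.74 in the selected cells and 0.61 in cells with fewer than 3 markers, where it stood at 139 CPM in the B-ALL environment and 91.2 CPM in the PBS control; this difference was not tested either. Gata1 had 0.92 in the selected cells and -0.60 in cells with fewer than 3 markers, likewise untested.

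The depth threshold left out 190 cells of leukemic mice (3.23%), whereas every control cell passed it. They held 357 to 3062 UMIs, with a median of 2273, and 32 of them carried at least 3 stem markers. As a sum they held Hlf at 349.5 CPM, Ifitm1 at 6610 CPM, Socs2 at 196 CPM and Mpo at 407 CPM.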

How the results depend on the processing

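No paired analysis was possible because single cells carry only a group prefix and not a replicate number. For the same reason leaving out each replicate, the DESeq2 test and the replicate block were not run. The ratio of shares was 6.88 after thinning, 2.19 with at least 2 markers, 8.52 with at least 4, 3.75 without cells with any UMI of the 4 interferon genes, and 8.17, 7.14 and 5.60 without Hlf, Mecom and Pdzk1ip1; in each the share was higher in the B-ALL environment. With no filter on low counts 673 genes were higher and 657 lower, with more genes tested. Dropping the filter does not alter a fold, and no cell was rich in globin or Igkc, so these alternatives could not move a value. After thinning, 46 of the 123 named genes stayed within the counting interval of the reported value, 71 moved beyond it and 2 changed sign. Over all alternatives, 1306 of 1595 values of the 123 named genes stayed within that interval. A further 282 moved beyond it, and 7 of called genes changed sign. After thinning the last were Smad7 (0.48) and Blvrb (0.14); without cycling cells Rrm2 (-0.23), Cdca2 (-0.0098) and Mcpt8 (0.88); with at least 4 markers Car1 (0.51) and Ms4a2 (0.28). Outside these 123 genes, Gata1 turned with at least 2 markers (-0.53) and Il6ra after thinning (0.26). The causes were not tested. Of 175 medians of the 25 lists with at least 5 tested members, 156 moved by under 0.2 and 19 by more. Among these the median of the G2/M genes turned to -0.36 without cycling cells and -0.09 after thinning. That of the erythroid genes turned to -0.32 with at least 2 markers and -0.14 without cycling cells. Cycling cells were left out by mitosis genes, so that setting bears on the G2/M median. Leaving out cells rich in globin or Igkc removed no cell. Depth limits genes with few control UMIs most, since the control sum was 2724006 UMIs.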
